A study of Homo sapiens with 14 samples.

Results

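RNA levels of 39 genes of synaptic vesicles and regulated exocytosis were examined in the human neuroblastoma cell line CHP-134. The genes were taken from a named list and sorted by role into the fusion machinery (SNAP25, STX1A, VAMP1, VAMP2, NSF), calcium sensors of the synaptotagmin family, vesicle membrane proteins, synapsins and RAB3 GTPases, docking, priming and active zone proteins, vesicle retrieval, and synaptic adhesion. Of the 39 genes, 37 were present in the table of 17810 genes from the OmoMYC experiment and 38 in the table of 19143 genes from the dTAG47 experiment.

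Neurons and neuroendocrine cells release transmitter by fusing vesicles with the plasma membrane. SNARE proteins on the vesicle and on the target membrane zip together, synaptotagmins couple this fusion to calcium entry, and active zone scaffolds hold vesicles near the release site. CHP-134 cells carry amplified MYCN and come from the sympathoadrenal lineage, in which such genes mark neuronal and secretory character.

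In the first experiment, the cells had been engineered by lentivirus to express either EGFP or OmoMYC from a doxycycline-inducible promoter and selected with G418. OmoMYC is a dominant-negative protein derived from MYC that competes with MYC family proteins for partners and DNA. Both lines received 1 µg/ml doxycycline for 3 days, and each gave 3 libraries. The EGFP and OmoMYC cells were separately engineered lines, so the expressed protein and any other difference between the lines cannot be told apart. In the second experiment, parental CHP-134 cells received 500 nM dTAG47, a degrader of proteins that carry an engineered FKBP tag, or DMSO for 18 h, with 4 libraries each. Parental cells hold no such tagged protein, so this comparison measures the response to the compound itself.

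Libraries held 28060817 to 38358128 counts in the OmoMYC experiment and 40861430 to 53451641 counts in the dTAG47 experiment. Reads assigned to MYC, to which transcripts of the OmoMYC construct can be assigned, numbered 16 to 20 in each EGFP library and 15040 to 20295 in each OmoMYC library. The EGFP libraries differed among themselves more than the OmoMYC libraries did, since the chi-square over genes, divided by its degrees of freedom, was 8.21 to 43.9 between EGFP pairs, the largest between EGFP replicates 1 and 3, and 2.86 to 9.03 between OmoMYC pairs. The lineage label was checked on 12 adrenergic neuroblastoma markers, whose summed level was 1791 to 2190 CPM (counts scaled to equal library sizes after TMM scaling) in EGFP libraries and 2186 to 2348 CPM in OmoMYC libraries. DBH and TH, which encode catecholamine-synthesising enzymes, averaged at most 1.16 CPM in either group. In bulk RNA, fewer cells of a type and less RNA per cell cannot be told apart.

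Sequences before the start sites of several members are shown first, because most tested members were induced in the OmoMYC comparison and because MYC family proteins bind the E-box CACGTG. Promoters were taken from RefSeq (GRCh38.p14), which gave the 250 bases before and 50 bases after a start for 31 of the 39 genes. These windows were searched on both strands for CACGTG, for the left end TTCAGCACC and the right end GGACAGC of RE1, the element bound by the neuronal gene repressor REST, and for the cyclic AMP response element TGACGTCA. The lines give the 250 bases before the start, 5′ to 3′ on the strand of the gene, with matches in capitals. SYN1 and UNC13A are shown for their matches, and SYT11 and SYT5 as strongly induced genes with no match. Of the other members with a promoter, only BSN and RAB3C held a match, and SYN3, which rose most, had no promoter listed. SYT5 has more than 1 listed start, and the upstream-most is printed.
SYN1, chrX:47619858-47620107, minus strand: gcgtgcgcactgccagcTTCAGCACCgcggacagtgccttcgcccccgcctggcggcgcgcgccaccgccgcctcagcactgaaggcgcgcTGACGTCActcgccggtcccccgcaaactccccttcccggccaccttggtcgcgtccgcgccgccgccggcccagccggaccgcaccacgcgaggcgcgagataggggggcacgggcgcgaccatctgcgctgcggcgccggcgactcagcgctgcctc
UNC13A, chr19:17688355-17688604, minus strand: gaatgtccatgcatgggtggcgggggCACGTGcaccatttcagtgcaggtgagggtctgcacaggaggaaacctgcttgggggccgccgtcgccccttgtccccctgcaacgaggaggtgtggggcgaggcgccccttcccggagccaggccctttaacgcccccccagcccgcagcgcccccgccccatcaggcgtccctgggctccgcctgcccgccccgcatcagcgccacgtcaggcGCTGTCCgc
SYT11, chr1:155859317-155859566, plus strand: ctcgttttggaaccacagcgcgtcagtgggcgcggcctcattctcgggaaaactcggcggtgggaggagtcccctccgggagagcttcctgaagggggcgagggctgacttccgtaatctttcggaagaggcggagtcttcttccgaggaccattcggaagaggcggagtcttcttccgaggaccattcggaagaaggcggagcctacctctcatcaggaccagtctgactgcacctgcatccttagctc
SYT5, chr19:55180290-55180539, minus strand: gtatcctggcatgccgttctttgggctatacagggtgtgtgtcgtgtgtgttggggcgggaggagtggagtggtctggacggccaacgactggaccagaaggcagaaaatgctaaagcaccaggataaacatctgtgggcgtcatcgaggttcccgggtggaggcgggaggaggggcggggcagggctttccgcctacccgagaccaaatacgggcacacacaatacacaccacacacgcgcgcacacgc
In SYN1, the capitals mark the RE1 left end, beginning 233 bases before the start, and the cyclic AMP response element, beginning 159 bases before it. In UNC13A, they mark the E-box, beginning 224 bases before the start, and the RE1 right end on the opposite strand, beginning 9 bases before it. The matches printed do not overlap each other.

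The E-box was found in 1 of the 31 members, UNC13A, or 3.23%, and in 8.77% of the promoters of all 27305 genes. The RE1 left end was found in SYN1 and UNC13A, or 6.45% of members, and in 0.469% of all genes; the UNC13A match lies after the start. The RE1 right end was found in BSN, RAB3C and UNC13A, or 9.68% of members, and in 7.33% of all genes. Only exact matches were counted. In SYN1 the printed letters shortly after the left end read ggacagt, which differs from GGACAGC only in the last base. The cyclic AMP response element was found in SYN1, or 3.23%, and in 2.25% of all genes. A match describes the letters in the window and is not a measured binding site.

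The OmoMYC comparison addressed which genes differ between the OmoMYC and EGFP lines after doxycycline. With OmoMYC, 28 of 37 tested entries for these genes were induced, 1 was suppressed and 8 were not called, at a Benjamini-Hochberg adjusted p under 0.05 in edgeR's quasi-likelihood test. Over all 13803 tested genes, 27.3% were induced and 25.7% suppressed. The median log2 fold change was 0.54 over the members and 0.01 over all tested genes. In 32 of the 37 entries the EGFP and OmoMYC libraries did not overlap, compared with 62.3% of all tested genes. Among the induced members, 10 rose over 2-fold, 8 rose 1.5-fold to 2-fold and 10 rose less than 1.5-fold. The largest rises were in SYN3 and SYT5, and the only suppressed gene was CADPS2.

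**Figure D1:**
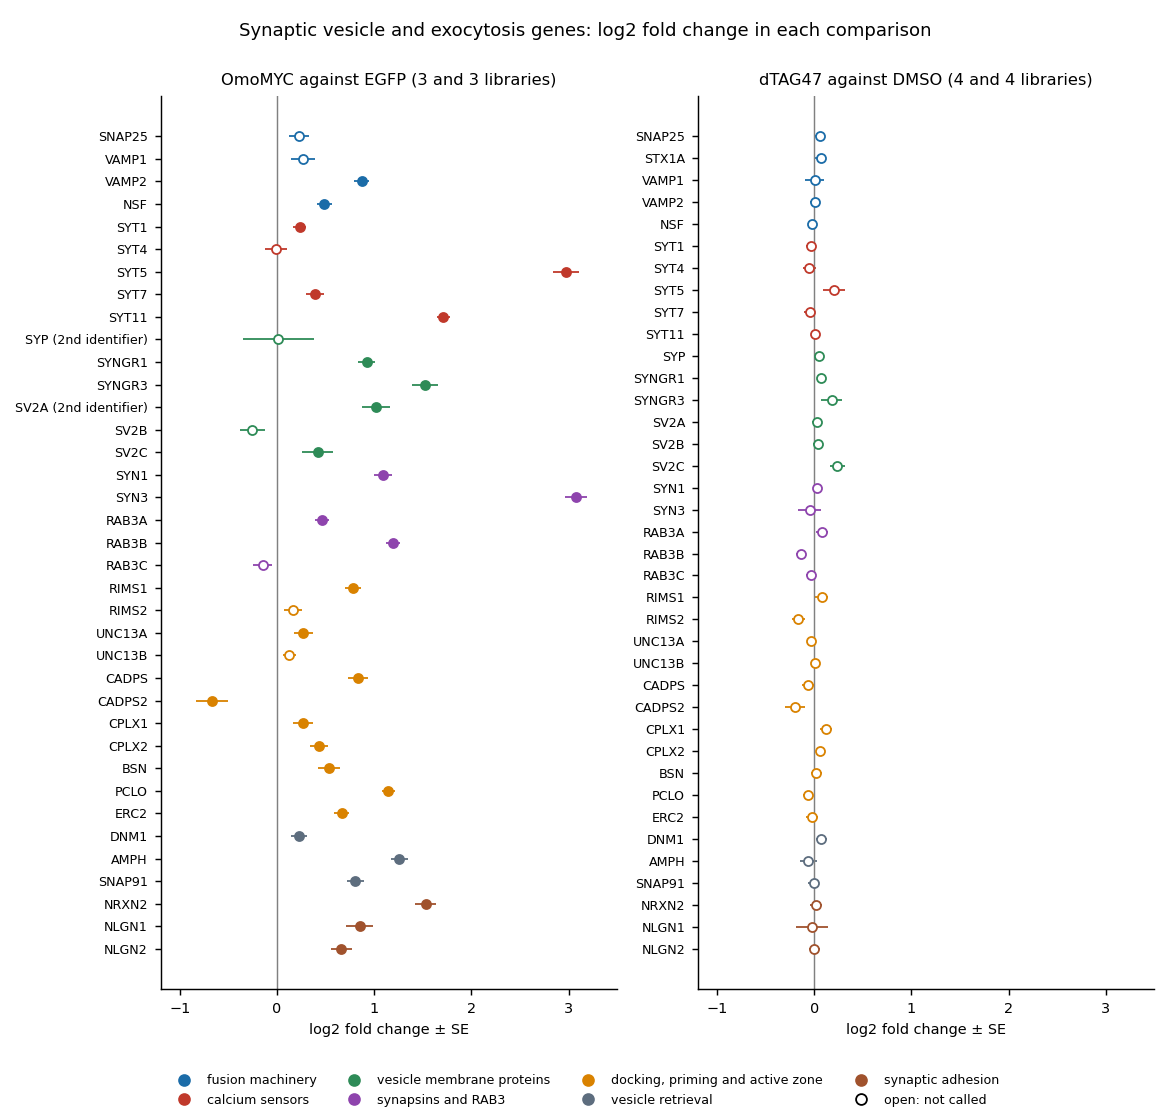
Log2 fold change with its standard error (horizontal axis) for each tested member (vertical axis), coloured by role, for OmoMYC against EGFP and for dTAG47 against DMSO on the same scale; filled points passed the adjusted threshold and open points did not. In the OmoMYC comparison 28 points are filled to the right of 0 and 1, CADPS2, to the left, while in the dTAG47 comparison all 38 are open and lie between -0.20 and 0.24.

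Of the 29 called members, 24 were called in each of the 6 fits that left out 1 library, and 21 in those and in every other alternative fitted to the whole experiment. The other 5 each lost the call in 5 of the 6 fits: SYT1 and SV2C stayed called only without EGFP replicate 1, and UNC13A, CPLX1 and DNM1 only without EGFP replicate 3. In these fits the number of induced members fell to 23 without EGFP replicate 2 or without any of OmoMYC replicates 1, 2 and 3. Over all tested genes, 2906 were induced without EGFP replicate 2, 3077 without OmoMYC replicate 1 and 2986 without OmoMYC replicate 2. The reported fit called 3766 of all tested genes induced. When a trend on GC content, transcript length and gene span was taken out of each library, 25 members were induced and 2 suppressed, and the median was 0.42, while 30.7% of all tested genes were induced and 27.9% suppressed. Under that fit UNC13A, CPLX1 and DNM1 turned to -0.05, -0.04 and -0.13, and SYT7 and BSN were no longer called. UNC13A and CPLX1 were then not called, and DNM1 was called suppressed (edgeR adjusted p = 0.00407).

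**Figure D2:**
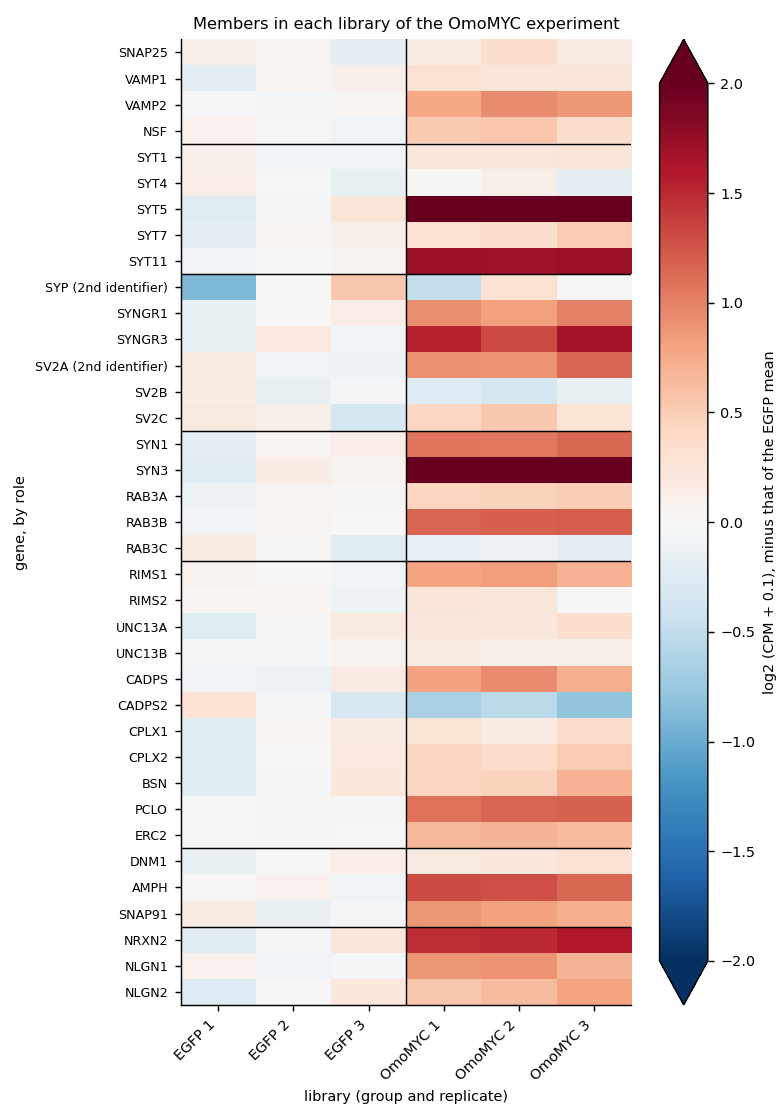
Level of each tested member (rows, grouped by role) in each of the 6 libraries of the OmoMYC experiment (columns), as log2 (CPM + 0.1) minus that of the EGFP mean, with red above and blue below it and colours saturating at 2. The OmoMYC columns are red for most rows, with SYN3 and SYT5 the darkest, and CADPS2 is blue in the 3 OmoMYC columns.

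Within the EGFP group the members did not share an order. EGFP replicate 1 was the lowest of the 3 for 19 of the 37 entries and the highest for 13, and EGFP replicate 3 was the lowest for 12 and the highest for 18. UNC13A, CPLX1, CPLX2, BSN, DNM1 and NLGN2 were all lowest in EGFP replicate 1 and highest in EGFP replicate 3. Other members had this order too, among them the strongly induced SYT5, SYT11, SYN1 and NRXN2. The reverse order was seen in others, among them SNAP25, NSF, SYT1 and RIMS1. The part of this spread in the smaller fold changes was not tested beyond the fits that leave out a library.

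The fusion machinery supplies the SNARE proteins and the ATPase that recycles them. VAMP2, the principal SNARE of synaptic vesicles, was at 25.4, 25.2 and 26.4 CPM in EGFP libraries and at 44.1, 49.6 and 47.0 CPM in OmoMYC libraries. The lowest OmoMYC library was well above the highest EGFP library, and VAMP2 rose 1.83-fold (log2 0.87 ± 0.08 SE, edgeR adjusted p = 1.27e-05). NSF, the ATPase that takes spent SNARE complexes apart, was at 125, 118 and 112 CPM with EGFP and at 171, 175 and 152 CPM with OmoMYC, a 1.40-fold rise (edgeR adjusted p = 0.000511). NSF has a near-identical copy in the genome, so its counts are uncertain. SNAP25, the target-membrane SNARE with a palmitoylated linker, was at 21.1, 20.5 and 17.4 CPM with EGFP and at 21.8, 25.1 and 22.1 CPM with OmoMYC. These groups came close without overlapping, and SNAP25 was not called (log2 0.23 ± 0.10 SE, edgeR adjusted p = 0.0801). It was called at log2 0.46 in the fit without the GC, length and span trend. VAMP1, the second vesicle SNARE of the list, was at 4.73 ± 0.50 and 5.70 ± 0.17 CPM (SD, n = 3 each) and was not called (edgeR adjusted p = 0.0876). Its exons overlap those of TAPBPL on the opposite strand, which was at 4.36 and 5.39 CPM, and whether counting used the strand is not given in the sources used here. STX1A was not analysed in this experiment.

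Among the calcium sensors, SYT5 and SYT11 rose most. SYT5, a synaptotagmin of dense-core and synaptic vesicles, was at 1.96, 2.26 and 2.76 CPM with EGFP and at 17.5, 17.5 and 19.7 CPM with OmoMYC. All OmoMYC libraries were far above all EGFP libraries, a 7.85-fold rise (log2 2.97 ± 0.13 SE, edgeR adjusted p = 6.67e-08). SYT11, a family member that does not itself bind calcium, was at 71.8, 76.2 and 79.5 CPM with EGFP and at 249.4, 246 and 249.7 CPM with OmoMYC. The 3 libraries of each group were tightly clustered, and SYT11 rose 3.27-fold (log2 1.71 ± 0.07 SE, edgeR adjusted p = 2.35e-08). SYT11 was 14.6 ± 0.74 CPM per kb of exon with EGFP and 47.9 with OmoMYC, which moved it from the eighth to the third place among members readable on that scale. That order leaves out STX1A, SV2A and SYP, which were at 25.9, 21.2 and 17.1 CPM per kb in the DMSO libraries of the other experiment.

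SYT1, the fast sensor for synchronous release, was abundant, at 212, 191 and 190.3 CPM with EGFP and at 231, 230.3 and 234 CPM with OmoMYC. Its 1.17-fold rise was called (log2 0.23 ± 0.07 SE, edgeR adjusted p = 0.0139) but stayed called in only 1 of the 6 fits without a library, with edgeR adjusted p up to 0.122. SYT7, a slow, high-affinity sensor, was at 55.4, 65.4 and 68.4 CPM with EGFP and at 77.9, 80.6 and 89.9 CPM with OmoMYC, a 1.31-fold rise (edgeR adjusted p = 0.00541) that went to log2 0.01 in the fit without the trend on GC content, length and span. SYT4, an atypical synaptotagmin, was at 18.3, 16.8 and 15.02 CPM with EGFP and at 17.0, 18.2 and 14.5 CPM with OmoMYC. The SYT4 groups overlapped (log2 -0.01 ± 0.11 SE, edgeR adjusted p = 0.947), although the same trend-free fit called it at log2 0.34.

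**Figure D3:**
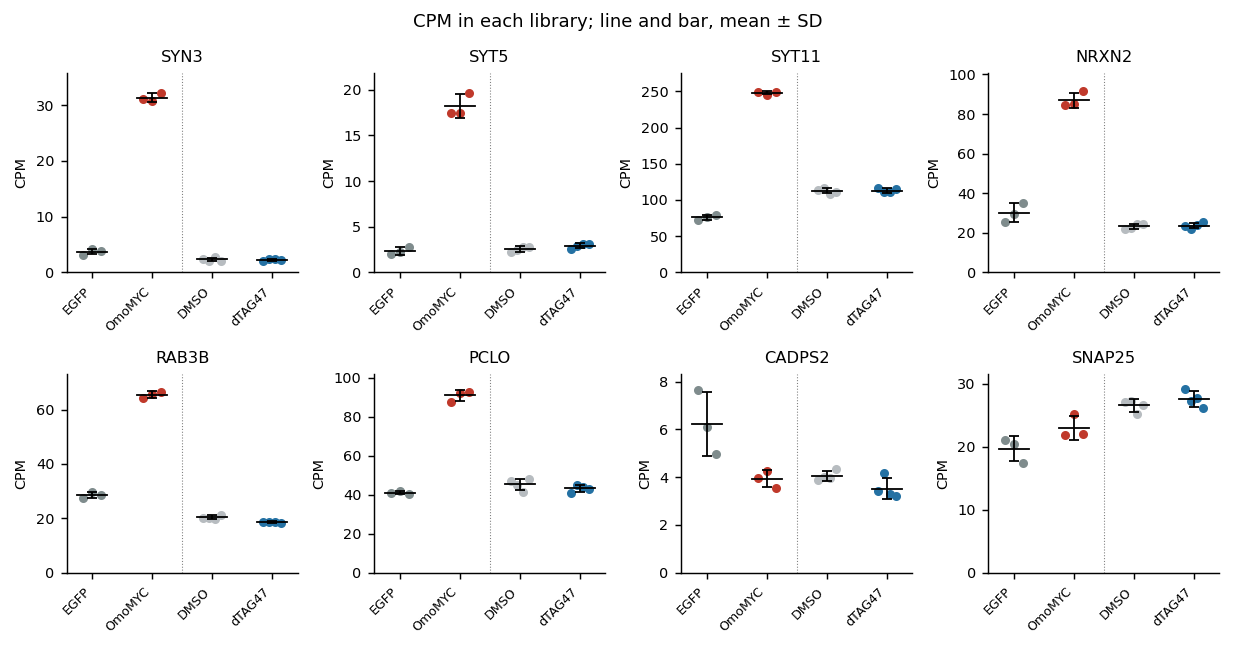
CPM (vertical axes from 0) of 8 members in every library of both experiments, with points for libraries and a line and bar for mean ± SD of each group (3 EGFP, 3 OmoMYC, 4 DMSO, 4 dTAG47); the dotted line separates the experiments, which were normalised separately. SYN3, SYT5, SYT11, NRXN2, RAB3B and PCLO are higher in every OmoMYC library than in any EGFP library, CADPS2 is lower with OmoMYC than with EGFP, and SNAP25 groups lie close together.

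Synapsins tether vesicles in the reserve pool, and RAB3 GTPases bring vesicles to the active zone. SYN3 was at 3.15, 4.12 and 3.89 CPM with EGFP and at 31.1, 30.8 and 32.2 CPM with OmoMYC. The groups were far apart, and this was the largest fold change of all tested members, an 8.44-fold rise (log2 3.08 ± 0.11 SE, edgeR adjusted p = 1.13e-08), and it was log2 2.71 in the trend-free fit. TIMP3, which lies within an intron of SYN3 on the opposite strand and encodes a metalloproteinase inhibitor, fell from 22 ± 0.75 to 15.5 ± 2.05 CPM (SD, n = 3 each; edgeR adjusted p = 0.00241). TIMP3 is given for its position and was chosen after its values were seen. SYN1 was at 44.01, 51.9 and 54.9 CPM with EGFP and at 106, 104 and 111 CPM with OmoMYC, a 2.13-fold rise (log2 1.09 ± 0.09 SE, edgeR adjusted p = 6.13e-06). Exons of SYN1 overlap those of ARAF, a RAF kinase gene, by 8 bases on the opposite strand, and ARAF rose from 49.3 to 61.0 CPM (edgeR adjusted p = 0.0162).

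Of the 3 RAB3 genes, RAB3A and RAB3B were induced. RAB3B was at 27.4, 29.7 and 28.6 CPM with EGFP and at 64.2, 65.6 and 66.6 CPM with OmoMYC, with no overlap and a 2.29-fold rise (log2 1.20 ± 0.07 SE, edgeR adjusted p = 6.79e-07). RAB3A, the most abundant of the 3 per kb of exon, was at 63.7, 71.1 and 69.4 CPM with EGFP and at 91.4, 94.0 and 96.2 CPM with OmoMYC, a 1.38-fold rise (edgeR adjusted p = 0.000423). MPV17L2, whose exons overlap those of RAB3A on the opposite strand, was at 22.9 and 23.3 CPM (edgeR adjusted p = 0.855). RAB3C was at 54.1, 48.9 and 41.1 CPM with EGFP and at 43.04, 44.98 and 41.9 CPM with OmoMYC. The RAB3C groups overlapped and it was not called (log2 -0.15 ± 0.10 SE, edgeR adjusted p = 0.230), except without EGFP replicate 3, the lowest of its group, when it was suppressed at log2 -0.28 (edgeR adjusted p = 0.00906). Differences between these paralogs were not tested against each other.

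Vesicle membrane proteins include the synaptogyrins, synaptophysin and the SV2 glycoproteins. SYNGR1, a synaptogyrin, was at 55.6, 60.8 and 67.1 CPM with EGFP and at 116, 108 and 123 CPM with OmoMYC, a 1.89-fold rise (edgeR adjusted p = 1.84e-05). SYNGR3, a brain-enriched synaptogyrin, was at 4.67, 5.95 and 4.99 CPM with EGFP and at 15.5, 13.0 and 16.5 CPM with OmoMYC, a 2.88-fold rise (log2 1.53 ± 0.13 SE, edgeR adjusted p = 9.38e-06). Both synaptogyrins were therefore higher in every OmoMYC library than in any EGFP library, where 62.3% of all tested genes had groups that did not overlap, whether up or down. SV2C was at 4.16, 3.98 and 2.86 CPM with EGFP and at 4.91, 5.35 and 4.44 CPM with OmoMYC. This rise passed narrowly (log2 0.42 ± 0.16 SE, edgeR adjusted p = 0.0465) and was called in 1 of the 6 fits without a library. SV2B was at 6.72, 5.44 and 5.92 CPM with EGFP and at 5.05, 4.70 and 5.46 CPM with OmoMYC, with overlapping groups (edgeR adjusted p = 0.111).

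SYP and SV2A each appeared under 2 identifiers in the table of the OmoMYC experiment, and the identifier that the annotation assigns to the gene was nearly empty. SYP, the classic vesicle marker synaptophysin, had 0 counts under its annotated identifier in 5 of the 6 libraries and 1 count in OmoMYC replicate 3, while the parental libraries held 113 to 129 CPM under the same identifier. SV2A likewise had 0 to 2 counts per library in the OmoMYC experiment and 97.5 to 108 CPM in the parental libraries. These low counts therefore cannot be read as the level of either gene. Of 203 symbols with an annotated identifier and another outside the annotation, 74 had at most 3 counts under the annotated one in every library of the OmoMYC experiment, and 56 of those had at least 100 counts in every parental library. Under the second identifier, SV2A was at 3.60, 2.97 and 2.93 CPM with EGFP and at 6.07, 5.995 and 7.24 CPM with OmoMYC, a 2.02-fold rise (edgeR adjusted p = 0.000207). Under the second identifier, SYP was at 0.51 to 1.55 CPM with EGFP and at 0.72 to 1.30 CPM with OmoMYC, with overlapping groups (edgeR adjusted p = 0.985). What reads these second identifiers collect is not given in the sources used here, and 27 of the 28 induced entries remain when SV2A is set aside.

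Docking, priming and active zone genes gave 8 induced and 1 suppressed of 11, beside 27.3% and 25.7% of all tested genes. PCLO, which encodes the scaffold piccolo, was at 41.0, 42.0 and 40.3 CPM with EGFP and at 87.7, 92.3 and 92.7 CPM with OmoMYC, a 2.21-fold rise (log2 1.15 ± 0.07 SE, edgeR adjusted p = 6.46e-07). BSN, encoding the related scaffold bassoon, was at 74.6, 84.2 and 101 CPM with EGFP and at 117, 119 and 140 CPM with OmoMYC, a 1.45-fold rise (edgeR adjusted p = 0.00261) that was not called in the trend-free fit (log2 0.05). Piccolo and bassoon transcripts were both higher in every OmoMYC library than in any EGFP library, while groups did not overlap, whether up or down, in 62.3% of all tested genes. ERC2, a scaffold that binds RIM proteins, was at 15.6, 15.1 and 15.6 CPM with EGFP and at 24.4, 24.9 and 24.0 CPM with OmoMYC, a 1.58-fold rise (edgeR adjusted p = 8.02e-05). RIMS1, which links vesicles to calcium channels, was at 14.9, 14.1 and 13.6 CPM with EGFP and at 24.7, 25.4 and 23.1 CPM with OmoMYC, a 1.72-fold rise (edgeR adjusted p = 4.89e-05). RIMS2, its paralog, was at 24.9, 24.9 and 22.5 CPM with EGFP and at 28.4, 28.4 and 24.3 CPM with OmoMYC, where the lowest OmoMYC library fell among the EGFP libraries (edgeR adjusted p = 0.150).

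Transcripts of the CAPS genes, whose proteins prime dense-core vesicles, moved in opposite directions. CADPS was at 10.6, 10.2 and 12.3 CPM with EGFP and at 19.4, 21.2 and 18.1 CPM with OmoMYC, a 1.78-fold rise (log2 0.83 ± 0.11 SE, edgeR adjusted p = 0.000122). CADPS2 was at 7.63, 6.09 and 4.96 CPM with EGFP and at 3.96, 4.26 and 3.55 CPM with OmoMYC, a change of log2 -0.67 ± 0.17 SE (edgeR adjusted p = 0.00657). The EGFP libraries of CADPS2 were spread widely, and every OmoMYC library was below every EGFP library, and it was called in all 6 fits without a library, at log2 -0.84 to -0.50.

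UNC13A, the principal Munc13 priming factor, was at 172, 205 and 230.5 CPM with EGFP and at 238, 236 and 258 CPM with OmoMYC, a 1.20-fold rise (edgeR adjusted p = 0.0406) that was called in 1 of the 6 fits without a library. In the trend-free fit UNC13A was at log2 -0.05 and was not called. UNC13B was at 85.7, 86.7 and 92.4 CPM with EGFP and at 98.1, 94.9 and 95.4 CPM with OmoMYC, close but not overlapping, and was not called (edgeR adjusted p = 0.145). Complexins clamp and then promote SNARE-driven fusion. CPLX2, the most abundant member per kb of exon, was at 355, 409 and 468 CPM with EGFP and at 551, 531 and 582 CPM with OmoMYC, a 1.35-fold rise (log2 0.43 ± 0.09 SE, edgeR adjusted p = 0.00299), and at log2 0.10 in the trend-free fit. CPLX1 was at 61.6, 74.2 and 80.5 CPM with EGFP and at 87.4, 80.6 and 92.2 CPM with OmoMYC. The highest EGFP library reached almost to the lowest OmoMYC library for CPLX1 (log2 0.27 ± 0.10 SE, edgeR adjusted p = 0.0451). CPLX1 was called in 1 of the 6 fits without a library. In the trend-free fit it was at log2 -0.04 and was not called.

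All 3 vesicle retrieval genes were induced in the reported fit, beside 27.3% of all tested genes. AMPH, encoding amphiphysin, which recruits dynamin to endocytic pits, was at 10.6, 11.2 and 9.95 CPM with EGFP and at 26.2, 26.1 and 23.7 CPM with OmoMYC, a 2.39-fold rise (log2 1.26 ± 0.09 SE, edgeR adjusted p = 2.67e-06). SNAP91, a clathrin assembly protein, was at 36.6, 30.0 and 32.1 CPM with EGFP and at 60.6, 57.8 and 54.3 CPM with OmoMYC, a 1.75-fold rise (edgeR adjusted p = 5.81e-05). DNM1, the neuronal dynamin that cuts vesicles from the membrane, was at 144, 161 and 175 CPM with EGFP and at 181, 185 and 196 CPM with OmoMYC, a 1.17-fold rise (edgeR adjusted p = 0.0343). AMPH and SNAP91 thus separated widely, whereas DNM1 was called in 1 of the 6 fits without a library. In the trend-free fit DNM1 was called suppressed (log2 -0.13, edgeR adjusted p = 0.00407). CIZ1, whose exons overlap those of DNM1 on the opposite strand, was at 217 and 253 CPM (edgeR adjusted p = 0.104).

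The 3 synaptic adhesion genes were induced as well, beside 27.3% of all tested genes. NRXN2, a presynaptic neurexin, was at 25.6, 29.5 and 35.2 CPM with EGFP and at 84.4, 84.9 and 91.5 CPM with OmoMYC, a 2.89-fold rise (log2 1.53 ± 0.11 SE, edgeR adjusted p = 2.22e-06). Its postsynaptic partner gene NLGN2 was at 114, 136 and 157 CPM with EGFP and at 197, 212 and 235 CPM with OmoMYC, a 1.58-fold rise (edgeR adjusted p = 0.000724). NLGN1 was the lowest member per kb of exon, at 2.43, 2.15 and 2.24 CPM with EGFP and at 4.26, 4.31 and 3.72 CPM with OmoMYC, a 1.80-fold rise (edgeR adjusted p = 0.000646). In each of the 3 genes the OmoMYC libraries lay above all EGFP libraries. The groups did not overlap, in either direction, in 62.3% of all tested genes.

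**Figure D4:**
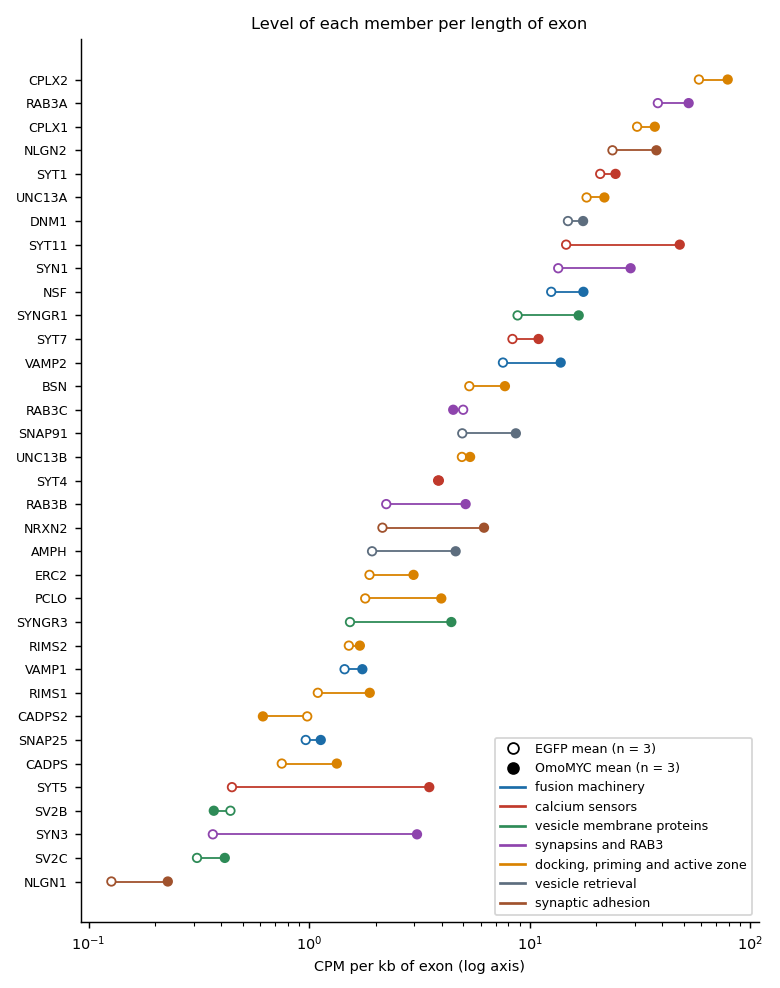
Mean level per kb of exon (CPM per kb, log axis) of the 35 members with counts under an annotated identifier in every EGFP library, ordered by the EGFP mean, with open points for EGFP and filled points for OmoMYC (n = 3 each) and colours for roles. CPLX2 is highest at 58.5 and NLGN1 lowest at 0.127 with EGFP, and the longest lines belong to SYT5, SYN3 and SYT11.

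Per kb of exon, members spanned a wide range in EGFP libraries. CPLX2 stood at 58.5 ± 8.08 CPM per kb in EGFP libraries, RAB3A at 38.1 ± 2.16, CPLX1 at 30.7 ± 4.11 and NLGN2 at 23.7 ± 3.82 (SD, n = 3 each). CPLX1 and NLGN2 overlapped in their library ranges, whereas CPLX2 did not overlap RAB3A. SYT5 and SYN3, the members with the largest fold changes, were low with EGFP, at 0.447 ± 0.078 and 0.366 ± 0.050 CPM per kb. SYT11, next by fold change, was at 14.6 ± 0.74 CPM per kb, and SV2B, at 0.44 ± 0.047, was not called.

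Other genes of release and retrieval were read from a list of 94, of which 86 entries were tested. Of these, 46 were induced and 9 suppressed, or 53.5% and 10.5%, beside 27.3% and 25.7% of all tested genes. The median log2 fold change was 0.28, between the 0.54 of the members and the 0.01 of all tested genes. The largest rises by the naming rule were in SYNPR, encoding a synaptophysin relative (log2 3.16 ± 0.23 SE, edgeR adjusted p = 2.31e-06), SYTL2, encoding a RAB27 effector (2.23 ± 0.12), SH3GL2, encoding endophilin A1 (1.84 ± 0.22), and SNPH, encoding syntaphilin (1.82 ± 0.11). The largest falls were in DOC2B, encoding a calcium sensor (-1.10 ± 0.22), SYT2, a fast sensor related to SYT1 (-0.82 ± 0.09), SYPL1, a widely expressed synaptophysin relative (-0.72 ± 0.13), and SNAP23, a widely expressed relative of SNAP25 (-0.62 ± 0.09). Within the synaptotagmins, SYT2 thus fell from 39.5 to 22.4 CPM while SYT5 and SYT11 rose. The count of suppressed genes in this list was 14 of 86 without EGFP replicate 3. In that fit 4184 of all 14009 tested genes were suppressed, against 3545 of 13803 in the reported fit.

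**Figure D5:**
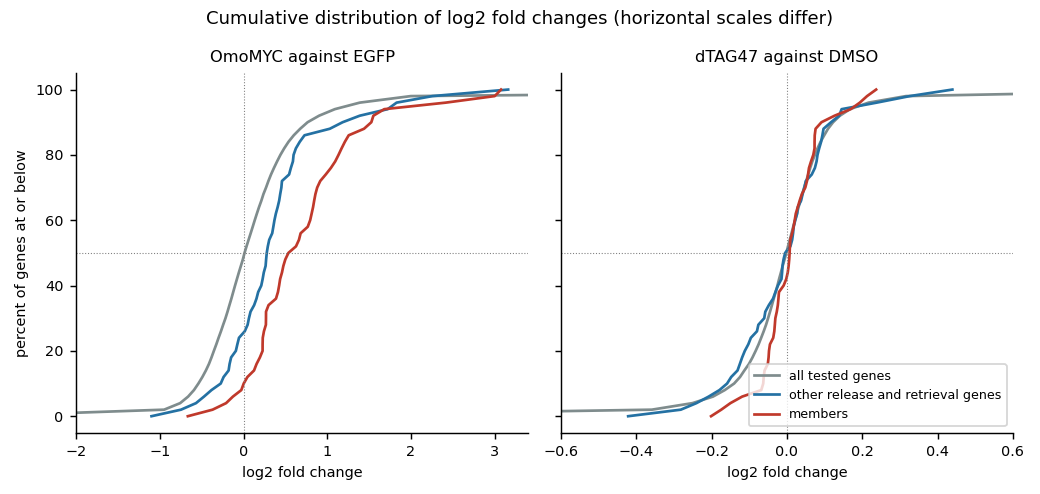
Cumulative share of genes (vertical axis, percent) at or below each log2 fold change (horizontal axis, with different scales in the panels) for members, other release and retrieval genes and all tested genes. For OmoMYC against EGFP the member curve lies to the right, with medians of 0.54, 0.28 and 0.01, and for dTAG47 against DMSO the curves meet near 0.

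Lineage markers were read beside the members. Of the 12 adrenergic markers 7 were induced and 1 suppressed, or 58.3% and 8.33%, and their summed levels overlapped between the groups, as given above. Of 15 mesenchymal and glial markers 11 were tested, of which COL1A1 and DCN were induced and COL1A2 and YAP1 suppressed, or 18.2% in each direction, below the shares of 27.3% and 25.7% among all tested genes. Their summed level was 105.5 to 116 CPM with EGFP and 95.1 to 105 CPM with OmoMYC. The part of these markers in the members' changes was not tested.

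The dTAG47 comparison asked what the degrader does where it has no tagged target. None of 38 tested members was called in edgeR's quasi-likelihood test, nor in DESeq2 or limma-voom, and 3 had an unadjusted edgeR p under 0.05. Over all 14470 tested genes, 0.117% were induced and 0.0415% suppressed. The members' fold changes ran from log2 -0.20 to 0.24 with a median of 0.01, 22 were higher and 16 lower, and standard errors were 0.041 to 0.17. In 2 of the 38 members the groups did not overlap, compared with 3.34% of all tested genes.

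Those 2 members were SV2C and RAB3B. SV2C was at 5.40, 5.91, 5.34 and 5.92 CPM with DMSO and at 6.42, 6.37, 7.29 and 6.55 CPM with dTAG47 (log2 0.24 ± 0.08 SE, edgeR adjusted p = 0.654). RAB3B was at 20.2, 20.2, 19.6 and 21.4 CPM with DMSO and at 18.7, 18.5, 18.8 and 18.2 CPM with dTAG47 (log2 -0.13 ± 0.05 SE, edgeR adjusted p = 0.673). In both genes every dTAG47 library lay to the same side of every DMSO library, but neither passed the adjustment. The third, RIMS2, was at 30.8, 27.7, 25.1 and 29.3 CPM with DMSO and at 25.7, 27.6, 24.1 and 23.5 CPM with dTAG47, with overlapping groups (log2 -0.17 ± 0.07 SE, edgeR adjusted p = 0.673).

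Replicates 1 and 2 of the DMSO group differed from replicates 3 and 4 more than within those pairs, by the same chi-square measure, which was 8.97 to 11.6 across and 2.67 and 3.22 within. The dTAG47 group did not divide in this way, since replicates 1 and 2 were at 8.43 from each other and replicate 1 was at 5.84 from replicate 3. In a fit with a term for that split, RIMS2 was called suppressed (log2 -0.17, edgeR adjusted p = 0.0450) and CPLX1 induced (log2 0.12, edgeR adjusted p = 0.0464). That fit also called 2.58% of all tested genes induced and 2.90% suppressed, so 1 member of 38 in each direction was near the background. In replicates 3 and 4 alone both were called (log2 -0.20 and 0.14), beside 2.93% of all tested genes induced and 3.24% suppressed, and in replicates 1 and 2 alone neither was (log2 -0.13 and 0.11). The direction was the same in both pairs of replicates, and the labels do not say what the split is.

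The members with the largest fold changes for OmoMYC were not called with dTAG47. SYN3 was at 2.33, 2.10, 2.66 and 2.10 CPM with DMSO and at 1.98, 2.30, 2.41 and 2.14 CPM with dTAG47 (edgeR adjusted p = 0.910). SYT5 was at 2.18, 2.46, 2.73 and 2.81 CPM with DMSO and at 2.59, 2.93, 3.11 and 3.09 CPM with dTAG47 (log2 0.20 ± 0.11 SE, edgeR adjusted p = 0.680). SYT11 was at 114, 116, 108 and 111 CPM with DMSO and at 116, 110.4, 110.3 and 115 CPM with dTAG47 (edgeR adjusted p = 0.961). For all 3 genes the groups overlapped.

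The genes not measurable with OmoMYC could be read in the parental cells. STX1A, the target-membrane syntaxin, was at 91.3, 88.1, 102 and 102 CPM with DMSO and at 102, 92.7, 102 and 104 CPM with dTAG47 (log2 0.06 ± 0.06 SE, edgeR adjusted p = 0.739). SYP averaged 119 ± 4.55 and 123 ± 5.93 CPM (SD, n = 4 each; edgeR adjusted p = 0.752), and SV2A averaged 101 ± 2.92 and 103 ± 4.79 CPM (edgeR adjusted p = 0.876). Each overlapped between DMSO and dTAG47. SYN2 was not analysed in either experiment. Of the 94 other release and retrieval genes, 87 entries were tested with dTAG47 and 0 were called by edgeR, with 7 at an unadjusted p under 0.05 and a median of -0.00. The summed adrenergic markers were at 1770 to 1879 CPM with DMSO and at 1786 to 1944 CPM with dTAG47.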

How the data were processed

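RNA was sequenced after ribosomal RNA depletion, with 3 libraries each for EGFP and OmoMYC and 4 each for DMSO and dTAG47. The deposited values are raw counts per gene, which the authors made with STAR and featureCounts on hg19, per the labels, and the submitters' notes also name DESeq2. Versions of STAR, featureCounts and DESeq2, the annotation release and use of strand are not given in the sources used here. The study calls its libraries biological replicates. No columns of other samples were in the tables (0).

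Members and gene lists were chosen with earlier results of these data known. Each experiment was fitted alone, since the tables were made separately. In R 4.3.3, edgeR 4.0.16 filtered low counts (filterByExpr), scaled by TMM and fitted quasi-likelihood models of group, and p-values were Benjamini-Hochberg adjusted over all tested genes at 0.05. CPM are on TMM-scaled library sizes. Alternatives were DESeq2 1.42.0, limma 3.58.1 (voom), other scaling and filters, a replicate block, a term for replicates 1 and 2 against 3 and 4, leaving out each library and, added after seeing the data, removal of a spline trend (4 degrees of freedom per feature) on GC content, length and span as an offset that kept each library's median. The fits were tested on simulated data. Lengths, spans and overlaps came from GENCODE 44 on GRCh37; 35 of 37 member entries had values. Same-numbered libraries were not taken as pairs. All members are accounted for; values per library are given for those called and the 10 highest per kb. Other named genes are the 4 largest rises and 4 largest falls called in the other-gene list at a mean of at least 1 CPM, genes whose exons overlap a member, and MYC. Outside this rule, TIMP3, DBH, TH, COL1A1, DCN, COL1A2 and YAP1 were named after their values were seen. SE is the standard error of the log2 fold change. Figures were drawn with matplotlib 3.10.9. The value of 1 lineage marker is not reported here.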

Additional observations from a re-analysis of the deposited data

Results flagged for a closer look

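Among 76 groups of 4 libraries of members in the dTAG47 experiment, 1 held a library far from the others. VAMP2 was at 42.13 CPM in DMSO replicate 3 and at 38.58 to 38.63 CPM in the other DMSO libraries. Chance alone would single out about 1 in 20 groups.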

How the results depend on the processing

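In the OmoMYC comparison the number of induced members was 24 to 29 under DESeq2, limma-voom, other scaling, other filters and the replicate block, against 28 in the reported fit, and 23 to 26 when 1 library was left out. Over all tested genes those alternatives called 3554 to 4233 induced, against 3766 in the reported fit. Without EGFP replicate 2 the all-gene count was 2906, and without EGFP replicate 3 it was 4065. Suppressed members numbered 1 to 2 when 1 library was left out, and suppressed genes of the other release and retrieval list 8 to 14, against 9. The 14 came without EGFP replicate 3, when 4184 of all tested genes were suppressed, against 3545. Removing the trend on GC content, length and span gave 2 suppressed members and turned SYT4 to 0.34, UNC13A to -0.0459, CPLX1 to -0.0419 and DNM1 to -0.13 (log2). The same removal without keeping each library's median, the form run first, shifted the median of all genes to -0.08 and gave 23 induced and 5 suppressed members, and 29 induced and 20 suppressed genes of the other list, with SYT4 at 0.24, SYT7 at -0.0896, UNC13A at -0.14, CPLX1 at -0.14, BSN at -0.0460 and DNM1 at -0.23; over all genes 3100 were then induced and 5304 suppressed, against 3766 and 3545. The cause was not tested.

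In the dTAG47 comparison the term for replicates 1 and 2 against 3 and 4, and replicates 3 and 4 alone, each gave 1 induced and 1 suppressed member, against 0 and 0, while over all genes they gave 374 and 420, and 426 and 470, against 17 and 6. In the other list these fits gave 2 and 5, and 4 and 4, and leaving out 1 library gave 0 to 1 in each direction. Same-numbered libraries deviated together with correlations of 0.08, -0.07 and 0.29 in the OmoMYC experiment and 0.01 to 0.16 in the dTAG47 experiment, and not every library correlated best with its own number. The replicate block gave 29 induced and 1 suppressed members with OmoMYC, none with dTAG47, and 1 induced and 3 suppressed genes of the other list with dTAG47. Over all tested genes with OmoMYC, the block called 4233 induced and 3867 suppressed, against 3766 and 3545. Restricting promoters to the 250 bases before the start left the RE1 left end in 1 member instead of 2. With 3 or 4 libraries a group, small changes of members at a few CPM, such as SV2C, could be called or lost by 1 library.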
